A study of Rattus norvegicus with 23 samples.

Results

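MiR-15b, miR-16, miR-195 and miR-497 are closely related microRNAs, and each hairpin can give a mature form from its 5′ side (5p) and from its 3′ side (3p). Every entry of the sRNAbench count table with one of these 4 names was taken, whichever arm it came from, which gave 8 of the 413 entries in the table. Small RNA had been sequenced from PC12 cells, a rat pheochromocytoma line with neuroendocrine and neuron-like properties. The α1ACT line stably expressed α1ACT, a transcription factor encoded within the calcium channel gene CACNA1A, from pcDNA3 with a C-terminal 3xFlag tag and a repeat of 11 glutamines. The vector line carried empty pcDNA3, and both lines had been selected with G418 as stable clones. How many clones make up each line is not stated in the labels, so the transgene and the clone cannot be told apart. The times are 6 h, 24 h, 3 d and 10 d after a split. Each of the 4 α1ACT groups has 3 libraries, the vector group at 6 h has 2 and the other vector groups have 3, which makes 23. The labels do not say whether the libraries of a group are separate cultures, so the p-values reflect only how far these libraries spread, and that spread may be technical.

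MicroRNAs guide Argonaute proteins to messenger RNAs, mostly through the seed, the bases near the 5′ end of the mature form, and lower the output of the targets. The miR-15/16 family is best known for holding back the cell cycle through cyclins, cyclin-dependent kinases and other targets such as Bcl2, and in mouse heart miR-195 is linked to the time at which muscle cells leave the cell cycle. The arm that is loaded more often is called the guide and the other the passenger.

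The 4 guide forms are shown together because they share all bases of the seed, the part that picks most target sites, while the rest of the molecule sets them apart. The sequences are from RefSeq (assembly GRCr8), where all 8 entries had a match, and capitals mark the seed, bases 2 to 8.
rno-miR-15b-5p: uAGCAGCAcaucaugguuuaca
rno-miR-16-5p: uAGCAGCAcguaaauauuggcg
rno-miR-195-5p: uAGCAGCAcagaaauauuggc
rno-miR-497-5p: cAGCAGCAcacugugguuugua
Compared from the first base without gaps, miR-16-5p and miR-195-5p were identical at 19 of 21 bases (90.5%). The other pairs of guide forms were identical at 50.0% to 72.7% of bases.

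The passenger forms are shown because the 2 entries that passed the test between the lines, miR-15b-3p and miR-195-3p, are among them, and because each has a seed of its own.
rno-miR-15b-3p: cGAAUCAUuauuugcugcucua
rno-miR-16-3p: aCCAAUAUuauugugcugcuu
rno-miR-195-3p: cCAAUAUUggcugugcugcucca
rno-miR-497-3p: cCAAACCAcacugugguguuaga
The miR-16-3p and miR-195-3p seeds differ by a shift of 1 base along a shared CCAAUAU. The miRNAs lie in pairs in GRCr8. MiR-15b-5p (chr2:155555197-155555218) and miR-16-5p (chr2:155555343-155555364) are on the plus strand inside Smc4, which encodes a condensin subunit, and 86 bases separate miR-15b-3p from miR-16-5p. MiR-497-5p (chr10:55450172-55450193) and miR-195-5p (chr10:55450509-55450529) are on the plus strand inside no annotated gene, with 275 bases between miR-497-3p and miR-195-5p and with Bcl6b, Rnasek and Alox12 among the genes within 10 kb. The labels name no genome build for the counts, so the positions belong to the sequences and not to the counts.

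Levels are in CPM, the counts per 1000000 counts of a library after TMM scaling. Depth ran from 448557 counts (vector, 3 d, replicate 1) to 5070120 counts (α1ACT, 10 d, replicate 1). Of the 413 entries, 269 had enough counts to be tested, among them 7 of the 8 members; miR-497-3p did not. Markers of neuroendocrine cells (miR-375, miR-7a and miR-7b, 3 of 3 with counts) summed to 112265 to 180292 CPM in the α1ACT line and 130898 to 190582 CPM in the vector line. Of the mesenchymal markers 3 of 4 had counts (miR-214 had none), at 303 to 786 CPM in the α1ACT line and 399 to 1322 CPM in the vector line. Blood markers (4 of 4 with counts) were at 10.3 CPM or less in the α1ACT line and 7.78 CPM or less in the vector line, and muscle markers (1 of 3 with counts; miR-1 and miR-206 had none) were at 0.383 CPM or less in the α1ACT line and at 0 in the vector line. The liver miRNA miR-122 had no counts. In these bulk samples, fewer cells of a type and less RNA per cell cannot be told apart.

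The authors deposited a second table of counts of the same libraries, made with Chimira, and 2 libraries go against their names between the tables. Columns were compared over 269 miRNAs with enough counts in both tables. The sRNAbench column of vector 6 h replicate 2 is closest to the Chimira column of vector 10 d replicate 2. That of vector 10 d replicate 2 is closest to the Chimira column of vector 6 h replicate 2. The other 21 libraries are closest to their own name. For miR-16-5p the sRNAbench table holds 75132 counts at 10 d and 50876 at 6 h, and the Chimira table holds 51371 counts at 10 d and 75649 at 6 h. Which table has the names right was not tested. Calls that change with the names exchanged or the pair left out are therefore given with those values. Another library stands apart for 1 member: miR-15b-5p was at 156 CPM in α1ACT 10 d replicate 1, against 398 to 576 CPM in the other 22 libraries.

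MiR-16-5p was by far the most abundant member, ranked 10 in the whole table, and the 8 entries together took 2.91% ± 0.436 of a library's counts (SD, n = 23), between 2.15% and 4.04%. The mature forms are 21 to 23 bases long, so CPM can be set side by side without a length correction. Over all 23 libraries rno-miR-16-5p averaged 24816 ± 4069 CPM and made up 85.0% of the members' counts. MiR-497-5p followed with 1846 ± 274 CPM and miR-195-5p with 1734 ± 200 CPM, and the ranges of these neighbours overlapped. Within libraries the ratio of their counts ran from 0.792 (α1ACT, 6 h) to 1.23 (α1ACT, 10 d). Its group mean was below 1 in α1ACT 6 h alone (0.941). MiR-15b-5p averaged 448 ± 77.2 CPM, miR-195-3p 259 ± 31.6 CPM and miR-15b-3p 17.2 ± 5.24 CPM. MiR-16-3p was at 3.57 ± 1.37 CPM and miR-497-3p at 0.998 ± 1.02 CPM, and the ranges of this last pair overlapped. All other neighbours in the order were separate in every library except miR-15b-5p and miR-195-3p, whose ranges met through α1ACT 10 d replicate 1 alone. The order of that pair depended on the table: miR-15b-5p had fewer counts than miR-195-3p in 1 of 23 libraries here and in 22 of 23 in the Chimira table. MiR-497-3p had 0 to 8 counts per library and 0 in 8 of them, and miR-16-3p had 0 to 25 counts, with 0 in vector 3 d replicate 1, so small differences in these 2 passenger forms were not detectable at this depth. A count of 0 in that shallow library allows up to 6.72 CPM, which is 3 counts, and this limit covers counting error only.

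The hairpins differed in how far 1 arm prevailed. The 5p form made up a median of 99.98% of the 2 arms' counts for miR-16 and 99.95% for miR-497. For miR-15b the median was 96.1%, and for miR-195 it was 87.0%, between 81.9% and 90.7% over the 23 libraries. In the Chimira table the medians were 99.98% for miR-16, 99.88% for miR-497, 87.0% for miR-15b (74.0% to 92.7%) and 86.0% for miR-195 (81.0% to 90.3%), so the gap between miR-15b and miR-195 depended on the table. The miR-195 passenger was thus the one passenger form with over 100 counts in every library (130 to 1092). The paired neighbours also differed: miR-497-5p and miR-195-5p had nearly equal counts, with group means of the ratio between 0.941 (α1ACT, 6 h) and 1.17 (α1ACT, 10 d), whereas miR-15b-5p had 0.0146 (α1ACT, 10 d) to 0.0227 (vector, 6 h) of the counts of miR-16-5p, which lies in the same host gene. The lowest of these means rests on α1ACT 10 d replicate 1 (0.00752). Without it the α1ACT mean at 10 d was 0.0182 and the lowest was 0.0164 (vector, 3 d). Counts are per mature form, and whether all miR-16-5p came from this host gene was not tested. The ratio of miR-15b-5p to miR-16-5p also depended on the table. In 20 libraries, without that one and the vector pair, the sRNAbench count of miR-15b-5p was 1.77 to 2.74 times the Chimira count. For miR-16-5p it was 0.989 to 0.994 times.

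**Figure D1:**
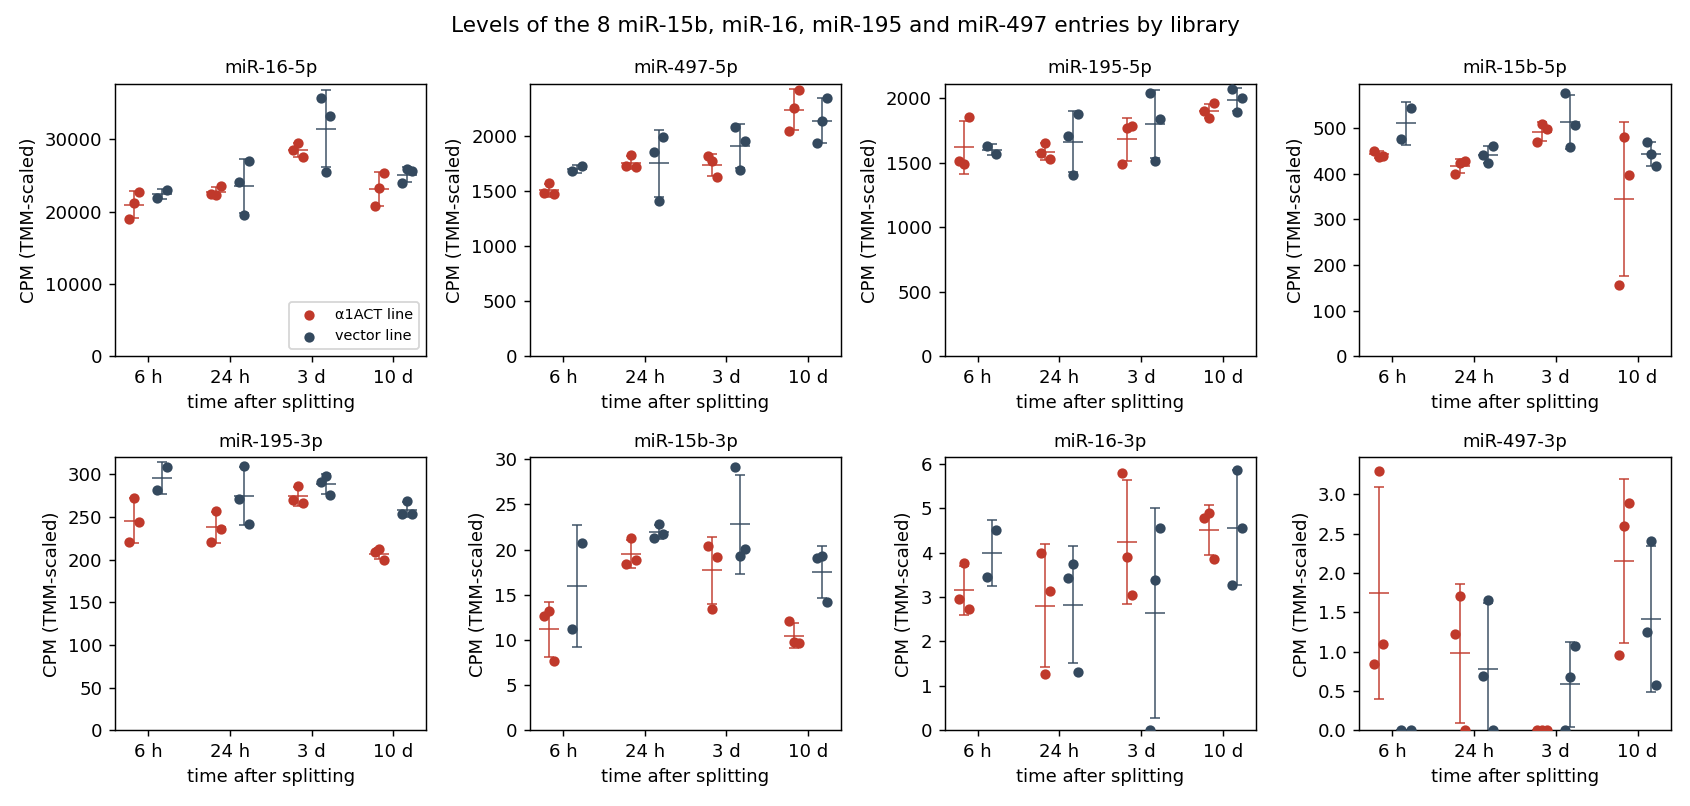
Level of each of the 8 entries in TMM-scaled CPM (vertical axes, each from 0) at 4 times after splitting, with the α1ACT line left of the vector line; points are libraries, and horizontal ticks and bars are group means and SD. MiR-16-5p is highest at 3 d in both lines, miR-497-5p is highest at 10 d, and 1 α1ACT library at 10 d lies at 156 CPM for miR-15b-5p.

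The first comparison asks whether stable α1ACT expression goes with another level of these miRNAs, as the mean of the differences at the 4 times. Both calls were passenger forms, and both were lower in the α1ACT line, with a fitted ratio of α1ACT to vector of 0.861 for miR-195-3p and 0.746 for miR-15b-3p. No guide form passed the test. With edgeR's quasi-likelihood test, adjusted by Benjamini and Hochberg's method across the 269 tested miRNAs, 2 of the 7 tested members were called lower and 0 higher, against a background of 5.95% of all tested miRNAs called lower and 6.69% called higher. The fitted estimates of all 7 were negative, as were those of 49.8% of all tested miRNAs. The median of the 7 was −0.10 on the log2 scale, against 0.000886 over all tested miRNAs. The estimates of miR-195-5p, miR-497-5p and miR-16-3p turned positive when libraries were scaled by upper quartiles or by their totals.

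The passenger rno-miR-195-3p had a lowest, median and highest level of 200, 240 and 286 CPM in the 12 α1ACT libraries, against 242, 276 and 310 CPM in the 11 vector libraries. The ranges overlapped, and 11 of 12 α1ACT libraries lay below the vector median. The means were 241 ± 28.8 CPM in the α1ACT line and 278 ± 22.8 CPM in the vector line, and the log2 fold change was −0.22 (SE 0.0569; 95% interval −0.33 to −0.10; edgeR adjusted p = 0.0134). The call was kept in 27 of 35 alternative settings. It was lost when libraries were scaled by totals (adjusted p = 0.0919) or upper quartiles (0.104), when the pair of vector libraries was left out (0.0751), and without any 1 of 5 single libraries (highest 0.0736), while the fold change stayed between −0.24 and −0.13. Those libraries were α1ACT 6 h replicate 1, α1ACT 3 d replicate 3, vector 6 h replicate 2, vector 24 h replicate 2 and vector 10 d replicate 2.

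The passenger rno-miR-15b-3p had a lowest, median and highest level of 7.66, 13.3 and 21.3 CPM in the α1ACT line, against 11.2, 20.1 and 29.1 CPM in the vector line. The ranges overlapped, and 10 of 12 α1ACT libraries lay below the vector median. The means were 14.7 ± 4.69 CPM in the α1ACT line and 19.9 ± 4.57 CPM in the vector line, and the log2 fold change was −0.42 (SE 0.134; 95% interval −0.70 to −0.15; edgeR adjusted p = 0.0415). These levels rest on 13 to 76 counts per library. The call was kept in only 14 of 35 alternative settings: it was lost in the Chimira table (−0.23, adjusted p = 0.320), there with the pair exchanged (−0.27, adjusted p = 0.152) and with the pair left out (−0.28, adjusted p = 0.274). It was also lost under upper quartiles (adjusted p = 0.0838), library totals (0.0852), no low-count filter (0.0686), limma-voom (0.0538) and the pair exchanged (0.0612), with estimates between −0.43 and −0.33. It was lost without any 1 of 13 single libraries, with adjusted p-values between 0.0528 and 0.184, the highest without vector 6 h replicate 2 (−0.31). The other 12 were α1ACT 6 h replicates 1 and 3, α1ACT 24 h replicates 1 and 3, α1ACT 3 d replicates 2 and 3, α1ACT 10 d replicates 2 and 3, vector 24 h replicates 1 and 2, and vector 10 d replicates 1 and 2.

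Of the guide forms, miR-16-5p averaged 23806 ± 3248 CPM in the α1ACT line and 25918 ± 4719 CPM in the vector line (log2 fold change −0.10, edgeR adjusted p = 0.266; 95% interval −0.23 to 0.02). MiR-15b-5p had a lowest, median and highest level of 156, 438 and 508 CPM in the α1ACT line, against 416, 461 and 576 CPM in the vector line (−0.18, adjusted p = 0.343). For miR-195-5p the α1ACT mean was 1696 ± 175 CPM and the vector mean 1776 ± 225 CPM (−0.05, adjusted p = 0.623). For miR-497-5p the α1ACT mean was 1807 ± 294 CPM and the vector mean 1889 ± 257 CPM (−0.06, adjusted p = 0.539). The upper and lower bounds of the 95% intervals for miR-195-5p and miR-497-5p lay between −0.18 and 0.07, so a log2 change of 0.5 in either direction lies outside them. The passenger miR-16-3p was at 3.68 ± 1.17 CPM in the α1ACT line and 3.46 ± 1.61 CPM in the vector line, and its interval was wide, −0.56 to 0.50 on the log2 scale.

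**Figure D2:**
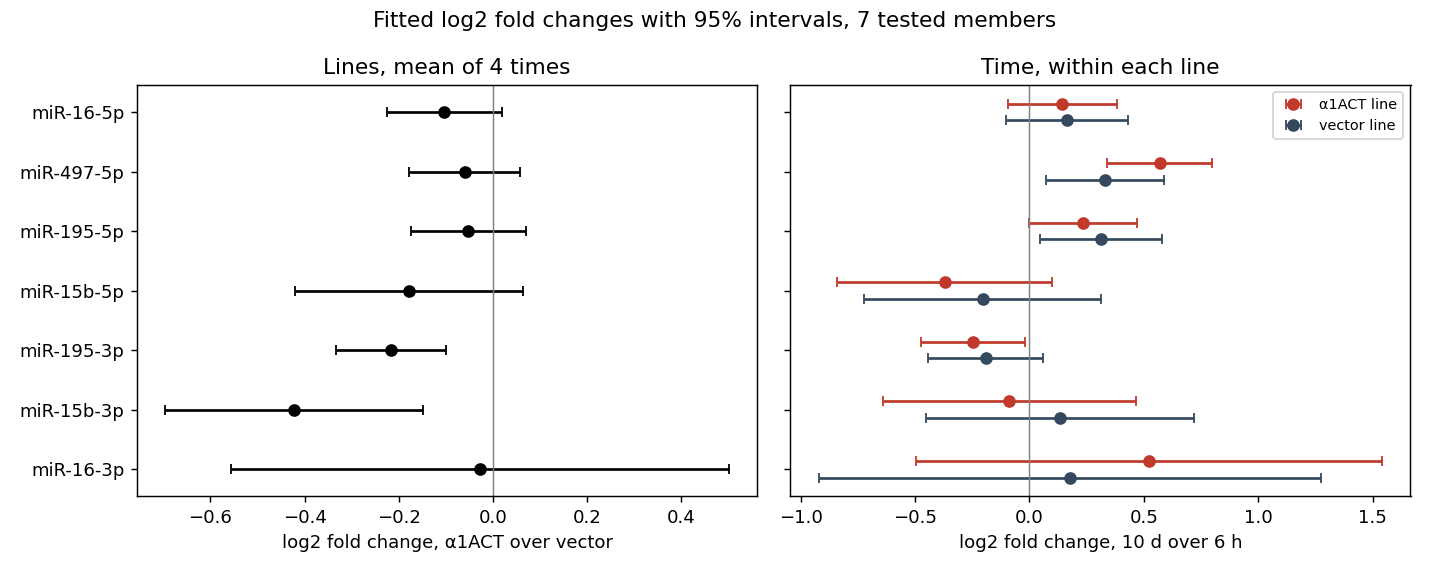
Fitted log2 fold changes with 95% intervals (horizontal axes) of the 7 tested entries, for α1ACT over vector as the mean of 4 times (left) and for 10 d over 6 h within each line (right, α1ACT above vector). The intervals of miR-15b-3p and miR-195-3p lie below 0 on the left, and miR-497-5p in the α1ACT line has the lower bound farthest above 0 on the right.

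At single times no member passed the test: 0 of 7 were called by edgeR at 6 h, 24 h, 3 d and 10 d, where 0%, 0.372%, 0.372% and 1.49% of all tested miRNAs were called. DESeq2, limma-voom and all other settings also gave 0. At an unadjusted p under 0.05 there were 1 at 6 h (miR-195-3p), 0 at 24 h, 0 at 3 d and 2 at 10 d (miR-195-3p and miR-15b-3p), where 11.2%, 10.4%, 8.92% and 14.9% of all tested miRNAs passed. The test of whether the line difference changed with time called 0 members (smallest unadjusted p = 0.434, for miR-497-5p; adjusted p = 1.00 for each) and 0% of all tested miRNAs, of which 3.72% had an unadjusted p under 0.05.

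The single-time values of the 2 passenger forms are given because they were called as a mean. MiR-195-3p was at 209, 212 and 200 CPM in the 3 α1ACT libraries of 10 d, against 253, 269 and 254 CPM in the 3 vector libraries. At 6 h it was at 220, 272 and 245 CPM in the α1ACT line, against 282 and 309 CPM in the vector line. The groups did not overlap at these 2 times and overlapped at 24 h and 3 d. By comparison, the ranges of 27.9% of all tested miRNAs did not overlap at 6 h and of 24.9% at 10 d. With the names of the vector pair exchanged, the vector library at 269 CPM would belong to 6 h. There it would lie below the α1ACT library at 272 CPM, so the groups of 6 h would overlap. The log2 fold changes were −0.27, −0.21, −0.07 and −0.32 at 6 h, 24 h, 3 d and 10 d (edgeR adjusted p = 0.144 at 10 d).

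MiR-15b-3p was at 12.1, 9.76 and 9.63 CPM in the α1ACT libraries of 10 d, against 19.1, 19.3 and 14.3 CPM in the vector libraries. At 24 h it was at 18.4, 21.3 and 18.8 CPM in the α1ACT line, against 21.3, 22.8 and 21.7 CPM in the vector line. The groups did not overlap at 10 d, just failed to overlap at 24 h and overlapped at 6 h and 3 d; the ranges of 17.1% of all tested miRNAs did not overlap at 24 h. The log2 fold changes were −0.50, −0.17, −0.29 and −0.72 at 6 h, 24 h, 3 d and 10 d (edgeR adjusted p = 0.158 at 10 d). Both passenger forms thus had negative estimates at all 4 times, as did 16.4% of all tested miRNAs, although miR-15b-3p turned to 0.11 at 6 h in the Chimira table and miR-195-3p to 0.01 at 3 d under upper-quartile scaling.

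For miR-15b-5p, the guide of the miR-15b hairpin, the difference at 10 d rested on 1 library. At 10 d it was at 156, 480 and 398 CPM in the α1ACT line, against 470, 443 and 416 CPM in the vector line. The α1ACT values lie on both sides of the vector values, and the log2 fold change of −0.37 (edgeR adjusted p = 0.495) became 0.02 without α1ACT replicate 1. Of 222 tested miRNAs that averaged 10 CPM or more, miR-15b-5p was the only one that lay more than 1.5 times outside the range of the other 22 libraries in this library. The sRNAbench table gives it 813 counts there, and the other table gives 809, a ratio of 1.00, whereas in 20 other libraries the sRNAbench count was 1.77 to 2.74 times the Chimira count. In the Chimira table the 3 α1ACT libraries at 10 d were at 148 to 213 CPM, within the range of the rest. The ratio between the tables was close to 1 for the more abundant relatives: 0.989 to 0.994 for miR-16-5p, 0.970 to 0.989 for miR-195-5p and 0.973 to 0.988 for miR-497-5p in the 21 libraries. For miR-15b-3p it was 0.315 to 0.780.

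**Figure D3:**
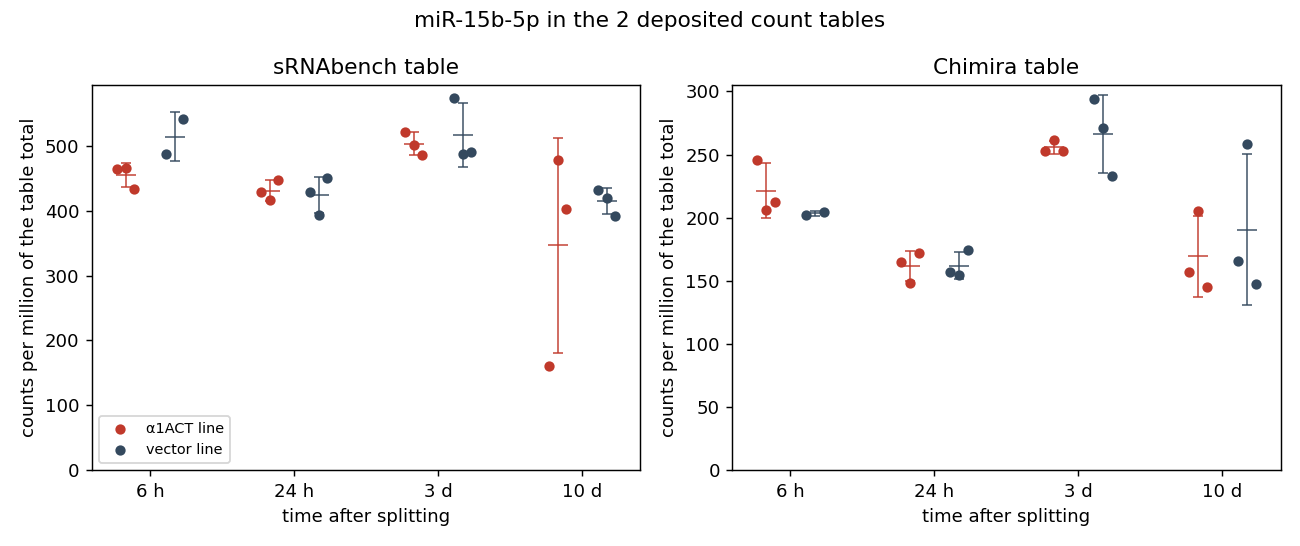
MiR-15b-5p in CPM of the table total (vertical axes, from 0) in the sRNAbench table (left) and the Chimira table (right) at 4 times, with the α1ACT line left of the vector line; points are libraries, and ticks and bars are group means and SD. The lone low α1ACT library at 10 d is seen in the sRNAbench table, and in the Chimira table the groups are highest at 3 d in both lines.

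The second comparison follows each line over the time after splitting. MiR-16-5p rose to its highest level at 3 d in both lines. In the α1ACT line the 3 libraries were at 18955, 21122 and 22662 CPM at 6 h, at 22367, 22274 and 23550 CPM at 24 h, at 28450, 29482 and 27497 CPM at 3 d and at 20710, 23288 and 25311 CPM at 10 d. All 3 α1ACT libraries of 3 d lay above the other 9. In the vector line the group means were 22411 ± 725 CPM at 6 h, 23523 ± 3725 CPM at 24 h, 31451 ± 5324 CPM at 3 d and 25120 ± 1029 CPM at 10 d. The vector libraries of 3 d, at 35636, 25458 and 33258 CPM, overlapped with those of 24 h and 10 d and lay above both of 6 h. With the names of the vector pair exchanged they would overlap with those of 6 h, which would then hold the library at 25851 CPM.

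The edgeR test over the 4 times called miR-16-5p in the α1ACT line (adjusted p = 0.0137) and in the vector line (adjusted p = 0.00800). The vector call was lost without vector 3 d replicate 1, the shallowest library (adjusted p = 0.0840), and the α1ACT call was lost without α1ACT 3 d replicate 2 (adjusted p = 0.0605) and under upper-quartile scaling (adjusted p = 0.208). In all, 4 of 7 members were called over time in the α1ACT line, where 42.0% of all tested miRNAs were, and 1 of 7 in the vector line, where 36.8% were. In the α1ACT line the other calls were miR-497-5p (adjusted p = 0.00127), then miR-15b-3p (0.0110) and then miR-195-3p (0.0290). Without α1ACT 3 d replicate 2 the count in the α1ACT line was 2. In the vector line miR-497-5p was called as well without vector 24 h replicate 3 (adjusted p = 0.0329) or vector 10 d replicate 1 (adjusted p = 0.0310). A call in 1 line alone does not show that the lines differ, and the test of that difference called none.

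MiR-497-5p, the guide of the hairpin upstream of miR-195, was higher at 10 d than at 6 h in the α1ACT line. The 3 libraries were at 2038, 2255 and 2410 CPM at 10 d, against 1477, 1571 and 1467 CPM at 6 h. In the vector line they were at 1937, 2131 and 2343 CPM at 10 d, against 1676 and 1722 CPM at 6 h. The 2 times did not overlap in either line, as was so for 42.0% of all tested miRNAs in the α1ACT line and 45.0% in the vector line. With the names of the vector pair exchanged the vector times would overlap, with 2131 CPM at 6 h and 1722 CPM at 10 d. The log2 fold change was 0.57 in the α1ACT line (SE 0.112; edgeR adjusted p = 0.000327) and 0.33 in the vector line (SE 0.126; adjusted p = 0.0798). The α1ACT call was kept in all 36 alternative settings, with fold changes between 0.48 and 0.63. Its edgeR adjusted p was 0.00524 with the vector pair exchanged in the sRNAbench table. In the Chimira table it was 0.00217 as deposited and 0.000113 with the pair exchanged. The vector difference was called without vector 10 d replicate 1 (0.41, adjusted p = 0.0306) or vector 24 h replicate 2 (0.33, adjusted p = 0.0412). The vector estimate depended on the pair of libraries with exchanged names: it was 0.07 with the names exchanged and −0.01 in the Chimira table as deposited, against 0.22 with the pair left out and 0.30 in the Chimira table with the names exchanged (adjusted p = 0.0872). Under upper quartiles it was 0.50 and called (adjusted p = 0.00685).

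MiR-497-5p was the 1 member of 7 called between 10 d and 6 h in the α1ACT line, where 27.1% of all tested miRNAs were called. In the vector line 0 of 7 were called by edgeR, by DESeq2 and by limma-voom (2 at an unadjusted p under 0.05), against a background of 11.9% called (24.9% at an unadjusted p under 0.05). MiR-195-5p, the neighbour of miR-497-5p, averaged 1901 ± 55.8 CPM at 10 d and 1618 ± 203 CPM at 6 h in the α1ACT line (log2 fold change 0.23, edgeR adjusted p = 0.143). In the vector line it averaged 1987 ± 90.4 CPM at 10 d and 1599 ± 41.4 CPM at 6 h (0.31, adjusted p = 0.118). This estimate was 0.096 with the pair exchanged, 0.19 with the pair left out and 0.018 in the Chimira table, and under upper quartiles it was called (0.48, adjusted p = 0.0164).

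Of the passenger forms in the α1ACT line, miR-15b-3p averaged 11.2 ± 3.05, 19.5 ± 1.55, 17.7 ± 3.75 and 10.5 ± 1.37 CPM at 6 h, 24 h, 3 d and 10 d, so its levels in the middle of the course lay above both ends. The call of a change over time held in all 36 alternative settings (highest adjusted p = 0.0310), but the shape depended on the table. In the Chimira table the α1ACT means were 31.3, 44.9, 24.2 and 23.9 CPM in the same order, so 3 d lay below 6 h. MiR-195-3p averaged 246 ± 26.0, 238 ± 18.2, 274 ± 10.6 and 207 ± 6.50 CPM at the same times, lowest at 10 d, and its call was lost in 15 of 36 settings, among them the Chimira table (adjusted p = 0.0743), the pair exchanged (adjusted p = 0.0613) and leaving out any 1 of 11 single libraries (highest adjusted p = 0.0948). Those were all 3 α1ACT libraries of 3 d, all 3 of 10 d and replicate 2 of 24 h, and vector 6 h replicates 1 and 2, vector 24 h replicate 1 and vector 10 d replicate 3.

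MiR-15b-5p was not called over time in either line in the sRNAbench table (edgeR adjusted p = 0.236 in the α1ACT line and 0.769 in the vector line), except in the α1ACT line without α1ACT 10 d replicate 2 (adjusted p = 0.0349). In the Chimira table it was called in both (adjusted p = 0.00987 and 0.0455). There the α1ACT libraries were at 196 to 242 CPM at 6 h, at most 167 CPM at 24 h (median 158 CPM), 221 to 264 CPM at 3 d and 148 to 213 CPM at 10 d. The vector libraries were at 202 to 226 CPM at 6 h, 160 to 175 CPM at 24 h, 231 to 279 CPM at 3 d and 152 to 259 CPM at 10 d. In both lines the group mean was highest at 3 d and lowest at 24 h.

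The third comparison sets the arms of a hairpin against each other inside each library, where scaling between libraries plays no part. The log2 ratio of 5p to 3p counts, with 0.5 added to each, was 2.82 ± 0.269 for miR-195 in the α1ACT line and 2.67 ± 0.286 in the vector line. The difference, as the mean of the within-time differences, was 0.17 (two-sided exact permutation test within times, 80000 labellings, p = 0.0695, adjusted over 3 hairpins p = 0.208). For miR-15b the ratio was 4.85 ± 0.607 in the α1ACT line and 4.59 ± 0.328 in the vector line, with a difference of 0.22 (exact permutation p = 0.233, adjusted p = 0.349). Without α1ACT 10 d replicate 1 it was 0.37 (exact permutation, adjusted p = 0.0428). In the Chimira table with all libraries it was 0.16 (exact permutation, adjusted p = 0.353). There with the vector pair exchanged it was 0.18 (exact permutation, adjusted p = 0.313). With the vector pair left out of the sRNAbench table it was 0.12. For miR-16 the difference was −0.19 (exact permutation, adjusted p = 0.509). Although the passenger forms of miR-15b and miR-195 were the ones called lower in the α1ACT line, a change in arm ratio between the lines was thus not shown with all libraries.

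The miR-195 arms lay farther apart at 10 d than at 6 h. The log2 ratio of the arms averaged 3.20 ± 0.0870 at 10 d and 2.72 ± 0.241 at 6 h in the α1ACT line, and 2.94 ± 0.113 at 10 d and 2.44 ± 0.129 at 6 h in the vector line. The difference was 0.48 in the α1ACT line and 0.50 in the vector line, and 0.49 as their mean (two-sided exact permutation within lines, 200 labellings, p = 0.005, the smallest they can give; adjusted over 3 hairpins p = 0.015). This test was chosen after the values had been seen. With the names of the vector pair exchanged the mean difference was 0.30 (exact permutation p = 0.11), and in the Chimira table it was 0.31 as deposited (exact permutation p = 0.115) and 0.51 with the pair exchanged (exact permutation p = 0.005). The α1ACT difference, which does not use the pair, was 0.48 in the sRNAbench table and 0.50 in the Chimira table.

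**Figure D4:**
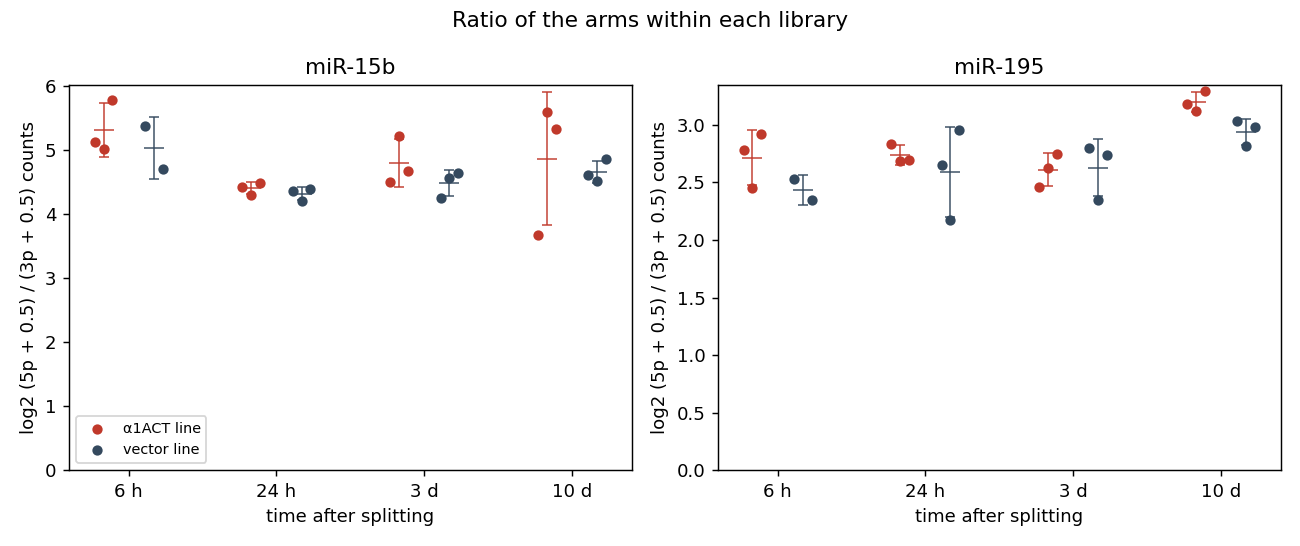
Log2 ratio of 5p to 3p counts (0.5 added to each; vertical axes, from 0) for miR-15b (left) and miR-195 (right) at 4 times, with the α1ACT line left of the vector line; points are libraries, and ticks and bars are group means and SD. The miR-195 ratio is highest at 10 d in both lines, and the lowest miR-15b point is α1ACT 10 d replicate 1.

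The wider group that includes miR-15 and miR-107 carries AGCAGC near the 5′ end, and 4 of its tested entries are not among the members. They are shown to place the shared bases, with bases 2 to 8 in capitals: miR-322-5p has the seed of the miR-15/16 guides, miR-503-5p shares AGCAGC but not the whole seed, and miR-103-3p and miR-107-3p carry the motif 1 base closer to the 5′ end.
rno-miR-322-5p: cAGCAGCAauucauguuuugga
rno-miR-503-5p: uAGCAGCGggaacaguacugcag
rno-miR-103-3p: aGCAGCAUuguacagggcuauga
rno-miR-107-3p: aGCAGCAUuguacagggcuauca
MiR-322-5p and miR-503-5p come from 1 cluster on the X chromosome, and miR-103 and miR-107 lie in introns of pantothenate kinase genes. Between the lines 0 of the 8 entries of the group (4 members and these 4) were called by edgeR (0 at an unadjusted p under 0.05), against a background of 12.6% (28.6% at an unadjusted p under 0.05); 5 had a negative estimate, and the median log2 fold change was −0.04, against 0.000886 over all tested miRNAs. The group's median turned to 0.045 under upper-quartile scaling and 0.023 under library totals, where that of all tested miRNAs was 0.089 and 0.068.

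Between 10 d and 6 h, 4 of the 8 were called higher and 0 lower in the α1ACT line, where 27.1% of all tested miRNAs were called, 11.2% as higher. Besides miR-497-5p they were miR-322-5p (1363 ± 94.3 CPM at 10 d and 1029 ± 36.0 CPM at 6 h; log2 fold change 0.41), miR-107-3p (202 ± 15.9 CPM at 10 d and 156 ± 14.7 CPM at 6 h; 0.37) and miR-103-3p (4671 ± 333 CPM at 10 d and 3903 ± 240 CPM at 6 h; 0.26), with edgeR adjusted p-values of 0.0102, 0.0256 and 0.0380. In the vector line 1 was called higher, miR-322-5p (0.43, adjusted p = 0.0266), and 1 lower, miR-503-5p (−2.17, adjusted p = 0.00956), where 11.9% of all tested miRNAs were called. MiR-503-5p was at low levels, 2.34 ± 1.58 CPM at 10 d and 10.3 ± 1.25 CPM at 6 h in the vector line. Both vector calls depended on the pair with exchanged names, by settings chosen after seeing the data. With the pair exchanged miR-322-5p was at 0.23 and miR-503-5p at −1.03, and in the Chimira table they were at 0.16 and −0.67, and neither was called either way (adjusted p of at least 0.993 for both entries). With the pair left out, which leaves 1 vector library at 6 h that is assumed to vary like the other groups, miR-322-5p was not called (0.47, adjusted p = 0.140) and miR-503-5p was (−3.03, adjusted p = 0.0134). In the Chimira table with the pair exchanged both were called (0.42, adjusted p = 0.0213, and −1.39, adjusted p = 0.0152). In the α1ACT line miR-103-3p was not called in any of these 4 settings (adjusted p between 0.0513 and 0.114), nor was miR-107-3p with the pair left out (adjusted p = 0.0627).

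The miRNAs whose levels ran most like those of each member over the 23 libraries, by Pearson's r of log2 CPM, are given as a description with no test, since libraries share line, time and depth. MiR-497-5p ran most like miR-93-5p (r = 0.78), miR-195-5p (0.73) and miR-181d-5p (0.70), and miR-195-5p most like miR-93-5p (0.77), miR-497-5p (0.73) and miR-130a-3p (0.68). MiR-16-5p ran most like miR-125a-3p (0.84), miR-425-5p (0.83) and miR-107-3p (0.77). MiR-195-3p ran most like miR-25-3p (0.86), miR-203a-3p (0.75) and miR-152-5p (0.72), and miR-15b-3p most like miR-203a-3p (0.68), miR-30e-5p (0.68) and miR-296-3p (0.66). The nearest to miR-15b-5p were miR-672-5p (0.66), let-7d-3p (0.59) and miR-30d-5p (0.55). For miR-16-3p they were miR-499-5p (0.75), miR-1224 (0.75) and miR-17-1-3p (0.74), all over very low counts for this member, and Spearman's rho was lower, at 0.33, 0.28 and 0.55 in the same order. The 2 arms of miR-195 did not run together (r = −0.30), and those of miR-15b did so weakly (r = 0.30).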

How the data were processed

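Small RNA libraries of a miRNA-enriched fraction had been made with an Illumina small RNA protocol, per the labels' protocols. The authors deposited whole-number read counts per mature entry, not normalized. By the names of the tables, 1 came from sRNAbench with single assignment (413 entries, analysed here) and the other from Chimira (627 entries, an alternative). EdgeR is a tool named in the submitters' processing notes; no label names an aligner, a miRBase release or a build. The header word control was read as the vector line and WT as the α1ACT line, which is assumed from the normal repeat length of the construct. Each table has 12 further columns of no sample here, which were not used, and 1 unnamed sRNAbench entry with 0 counts was left out.

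Counts were fitted with edgeR 4.0.16 in R 4.3.3: filterByExpr, TMM scaling, 1 mean per group over 23 libraries, robust quasi-likelihood F tests and Benjamini-Hochberg adjustment over the 269 tested entries, with adjusted p under 0.05 as a call. The common biological coefficient of variation was 16.1%. Log2 CPM for likeness used a prior count of 2. Arm ratios were tested by exact permutation within each time. Data were simulated for the line comparison over the 269 miRNAs (10 runs, 40 changed). Of changes of 0.5 and 1 on the log2 scale, 74.3% and 95.9% were recovered, with 4.98% false calls. These rates are over all 269 and were not split by level. Replicate pairs had a chi-square per degree of freedom of 21.3 to 215, so no library was counted as a duplicate. Reads carry no molecular identifiers. Named are all members, the tested entries with AGCAGC near the 5′ end and the 3 entries most like each member; single-time fold changes are given for miR-15b and miR-195-3p alone, a choice made after the values were seen. The members and lists were chosen with earlier results of these data known. Alternatives were the Chimira table, 3 other scalings, 2 other filters, DESeq2 1.42.0, limma-voom (limma 3.58.1), a replicate block, groups alone, each library left out, the vector pair exchanged or left out, an arm pseudocount of 5 and arm labels exchanged over all times; the Chimira table with the pair exchanged and the arm ratio of 10 d against 6 h were chosen after the data were seen.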

Additional observations from a re-analysis of the deposited data

Results flagged for a closer look

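MiR-15a-5p, a close relative of miR-15b-5p, has counts in the Chimira table, which the comparisons above do not use as their main table. It averaged 1341 CPM of the table total there. On this scale it was at 1351 ± 140 CPM in the 12 α1ACT libraries and 1331 ± 155 CPM in the 11 vector libraries (SD). With TMM scaling the order turned, with a mean of 1324 CPM in the α1ACT line and 1358 CPM in the vector line. The TMM-scaled ranges overlapped, at 1095 to 1537 CPM in the α1ACT line and 1095 to 1556 CPM in the vector line. All 23 libraries lay above the limit of 3 counts. The log2 fold change between the lines was −0.04 (edgeR adjusted p = 0.695).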

How the results depend on the processing

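Across 36 alternative settings 2380 values were recomputed. They include arm ratios with a pseudocount of 5 or with labels exchanged over all times, which are not among the 36. Of the 839 that did not come from leaving out 1 library, 777 stayed within the limits used. These were the same direction and side of the threshold for tested values, within 1.5 times for counts, and within the spread for values with no test. Values with no test include 2 medians that turned sign, that of the seed group (0.045 under upper quartiles and 0.023 under totals) and that of all tested miRNAs (−0.0034 in the Chimira table). Between the lines the 2 calls became 1 in the Chimira table (with or without the pair exchanged), with no low-count filter, with limma-voom and with the pair exchanged, and 0 under upper-quartile scaling, library totals and with the pair left out; leaving out 1 library gave 0 to 2, and DESeq2, RLE size factors, the CPM filter and the block gave 2. Over 10 d against 6 h in the α1ACT line the count of 1 became 2 under upper quartiles and with the replicate block (leaving out 1 library: 1 to 2), and in the vector line the count of 0 became 2 under upper quartiles (0 to 1). Over all times the 4 calls in the α1ACT line became 2 under upper quartiles, 3 with no low-count filter and with the pair exchanged, and 5 in the Chimira table with the exchange (leaving out 1 library: 2 to 4), and the 1 call in the vector line became 2 in the Chimira table with or without the exchange and 3 under upper quartiles (0 to 2). At single times and for line by time the count was 0 in every setting. The arm ratio difference between the lines ran from 0.13 to 0.37 for miR-15b, −0.30 to −0.01 for miR-16 and 0.11 to 0.21 for miR-195 when 1 library was left out, and the miR-15b call appeared only without α1ACT 10 d replicate 1.

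The other signs that turned were all of values not called. Between the lines, upper quartiles and totals gave 0.059 and 0.048 for miR-16-3p, 0.040 and 0.014 for miR-195-5p, and 0.033 and 0.00890 for miR-497-5p. MiR-16-3p was also at 9.78e-05 with limma-voom and 0.073 with the pair left out, and it ran from −0.12 to 0.077 with 1 library left out. Upper quartiles turned miR-15b-5p to 0.028 at 24 h (totals: 0.023) and 0.034 at 3 d, and miR-195-3p to 0.0091 at 3 d. At 6 h the Chimira table gave 0.11 for miR-15b-3p and 0.021 for miR-15b-5p. With 1 library left out miR-15b-5p ran from −0.65 to 0.016 at 10 d and from −0.13 to 0.030 at 3 d. For 10 d against 6 h in the vector line, the Chimira table gave −0.32 for miR-16-3p, −0.057 for miR-16-5p and −0.00628 for miR-497-5p; with the pair exchanged miR-16-3p was at −0.21 and miR-15b-5p at 0.050, and with both, miR-15b-3p was at −0.38 and miR-16-3p at −0.088. With 1 library left out, miR-15b-3p ran from −0.29 to 0.57 there and miR-16-3p from −0.063 to 0.40, and in the α1ACT line miR-15b-3p ran from −0.35 to 0.044. The causes were not tested.

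Deviations of same-numbered libraries of the lines did not run together as a rule. Over 11 pairs r ran from −0.54 to 0.52 (median −0.25, with 4 over 0.1). Such deviations come from groups of 2 or 3 libraries and are not independent, so they cannot decide whether the numbers pair libraries. The replicate block left the other counts of calls as they were and gave miR-195-3p at 10 d against 6 h in the α1ACT line an adjusted p of 0.0452 by edgeR. MiR-16-3p and miR-497-3p are limited by depth.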
